A study of Mus musculus with 18 samples.

Results

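The PSORS1 genes of the mouse were read from an RNA-seq series of sorted epidermal cells, as the rows with the symbols Psors1c2, Cdsn, Cchcr1, Tcf19 and Pou5f1, which are 5 of the 23951 genes measured. PSORS1 (psoriasis susceptibility 1) is the human region of the major histocompatibility complex with the strongest inherited association with psoriasis, and these 5 genes are the mouse counterparts of genes in and beside it. Each has a value in all 18 libraries, which for Pou5f1 is 0 in 12 of them.

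Corneodesmosin (Cdsn) is a secreted adhesion protein of the corneodesmosome, the junction that holds the dead cells of the cornified layer together until kallikrein proteases cut it and the cells are shed; it is also made in the inner root sheath of the hair follicle. Psors1c2 encodes a small proline-rich secreted protein and lies next to Cdsn. Cchcr1 encodes a coiled-coil protein found at centrosomes and in processing bodies, where mRNA is decapped and degraded. Tcf19 encodes a nuclear protein whose transcript rises as cells enter S phase, and Pou5f1 encodes Oct4, the transcription factor that maintains pluripotent cells. In healthy epidermis, basal keratinocytes divide, leave the basement membrane and then switch on the genes of the cornified layer, while stem cells of the follicle bulge divide rarely.

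Psoriasis-like DKO* mice carried floxed JunB and floxed c-Jun alleles and a tamoxifen-inducible Cre (K5-Cre-ERT) driven by the K5 promoter of basal keratinocytes, and control mice (Co) carried the same K5-driven Cre with alleles that were wild type or heterozygous for the floxed genes. All mice were on a mixed background, carried the mT/mG reporter, in which cells turn from membrane Tomato (Tom) to membrane GFP when Cre acts, and were of both sexes and 8 weeks old when they received 4 daily injections of 2 mg tamoxifen. Ear skin was taken at day 7. Bulge hair follicle stem cells (HF-SCs, CD45-, CD49f high, CD34+) and basal keratinocytes (b-KCs, CD45-, CD49f high, CD34-) were sorted, each as the mutant GFP and the non-mutant Tom fraction of DKO* mice 814, 815 and 817 and from Co mice 810, 825 and 828. There were thus 6 groups with 3 mice each, and the 4 DKO* populations came from the same 3 mice. GFP and Tom report Cre activity at the reporter and not at the floxed genes, so the fractions are mutant and non-mutant by reporter.

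The 5 genes lie within 1 stretch of chromosome 17 (build NCBIM37), in the order Pou5f1, Tcf19, Cchcr1, Psors1c2 and Cdsn, and no other annotated gene overlaps any of them. Pou5f1 (ENSMUSG00000024406.9, plus strand) spans chr17:35642982-35647721 and Tcf19 (ENSMUSG00000050410.9, minus strand) spans chr17:35649679-35653769. Cchcr1 (ENSMUSG00000040312.8, plus strand, chr17:35654045-35667960) starts 275 bases from the start of Tcf19, head to head with it. Psors1c2 (ENSMUSG00000024409.8, plus strand, chr17:35670146-35671592) follows after 2185 bases, and Cdsn (ENSMUSG00000039518.7, plus strand, chr17:35689073-35694125) after a further 17480 bases. The 250 bases upstream of 3 starts are shown because the proportions of neighbouring genes differed between Co and DKO* cells: Psors1c2 and Cdsn, on the same strand, and Tcf19 and Cchcr1, which share a start region. The sequences are those of the RefSeq promoter table (GRCm38.p6), each matched at a single place in NCBIM37, which ends at the base before the annotated start. Each is read 5′ to 3′ on its gene's strand, and capitals mark matches to the motifs named after them.
Psors1c2, chr17:35669896-35670145, plus strand: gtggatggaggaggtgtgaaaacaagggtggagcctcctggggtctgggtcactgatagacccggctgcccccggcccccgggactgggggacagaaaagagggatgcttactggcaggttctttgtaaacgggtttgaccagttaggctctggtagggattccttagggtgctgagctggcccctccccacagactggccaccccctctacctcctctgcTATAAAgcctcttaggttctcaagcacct
Cdsn, chr17:35688823-35689072, plus strand: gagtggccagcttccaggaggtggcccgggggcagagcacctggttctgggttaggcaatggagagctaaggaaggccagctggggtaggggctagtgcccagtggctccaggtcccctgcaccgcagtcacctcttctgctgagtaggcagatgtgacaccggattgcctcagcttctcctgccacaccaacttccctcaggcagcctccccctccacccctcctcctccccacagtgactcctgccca
Tcf19, chr17:35653770-35654019, minus strand: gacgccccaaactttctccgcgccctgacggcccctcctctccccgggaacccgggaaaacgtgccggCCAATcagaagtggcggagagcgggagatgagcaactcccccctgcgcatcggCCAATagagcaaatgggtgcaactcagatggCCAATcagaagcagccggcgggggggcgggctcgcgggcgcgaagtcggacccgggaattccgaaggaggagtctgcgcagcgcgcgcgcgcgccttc

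The motifs searched on both strands were TGANTCA (AP-1, the site bound by Jun proteins), GCGGGAA (E2F), TTCNNNGAA (STAT), CCAAT (NF-Y) and TATAAA (the TATA box), and no motif letters overlapped another. The Psors1c2 window held 1 TATAAA, which 12.4% of 32851 RefSeq windows of the same length held. The Cdsn window shown held none of the 5 motifs. RefSeq has a second, more upstream Cdsn start that is not the annotated start of NCBIM37, and its window held 1 STAT match. The Tcf19 window held 3 CCAAT, a motif present in 33.8% of windows; 224 of its bases are also in the RefSeq window upstream of the first Cchcr1 start, read there on the opposite strand with the same 3 matches as ATTGG. None of the 3 windows shown held the AP-1, E2F or STAT letters, which 6.75%, 3.82% and 7.02% of windows held. A match or its absence describes the letters of this window and nothing about binding.

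Expression was read as FPKM (fragments per kilobase of transcript per number of mapped reads), which is per length, so that levels can be compared between genes. The steps between low FPKM values implied 16501300 to 26296600 reads per library, at which 1 read was worth 0.0451 to 0.0719 FPKM for Psors1c2 and 0.0142 to 0.0226 FPKM for Cdsn. Jun (c-Jun) ranged over 835 to 1086 FPKM in the 6 Co libraries, 29.6 to 88.4 in the 6 GFP libraries and 163 to 614 in the 6 Tom libraries, and Junb over 436 to 772, 37.2 to 77.5 and 208 to 402, so both were lowest in GFP and lay between GFP and Co in Tom. Among GFP libraries, those of mouse 817 had the least Jun (30.4 in HF-SCs, 29.6 in b-KCs) and Junb (38.6 and 37.2). The other GFP libraries had 53.9 to 88.4 and 69.4 to 77.5 FPKM. The part of this in the values of mouse 817 below was not tested. The 10 bulge markers had summed levels of 2651 to 14185 FPKM in HF-SC Co and 3202 to 3359 in b-KC Co. They summed to 3994 to 6248 in HF-SC GFP and 3864 to 6899 in HF-SC Tom, and to 678 to 1481 in b-KC GFP and 404 to 1241 in b-KC Tom, below b-KC Co in each library, and the part of this shift in the results below was not tested. Mouse 828 gave the lowest HF-SC Co sum, and Krt15, a defining marker, is listed at 0 there; Krt14 is likewise listed at 0 in b-KC GFP and b-KC Tom libraries. Leukocyte markers summed to 2.33 to 7.85 FPKM in Co and 47.9 to 348 FPKM in DKO* libraries although CD45+ cells were gated out. These sums rest on few genes. Of the 8 markers, only 1 averaged at least 1 FPKM in each group of basal keratinocytes. Among HF-SCs, 2 did so in Co, 3 in GFP and 2 in Tom. Endothelial markers summed to 545 to 1600 FPKM in HF-SC Tom, against 56.7 to 97.9 in HF-SC Co, 1.09 to 29.7 in HF-SC GFP and at most 4.87 in b-KC libraries. Mouse 817 had the lowest Psors1c2, Cdsn and Tcf19 values of the 3 DKO* mice in both GFP fractions, and where leaving it out changed a call the value without it is given. The mouse was picked out by these same values. A fit without it has fewer libraries and a shared spread that no longer holds its deviations. A pass without it is therefore partly a result of that choice and no independent support.

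The genes were compared between groups with limma on log2(FPKM + 1), fitted over all 12751 genes that reached 1 FPKM in at least 3 libraries. A gene passed at a Benjamini-Hochberg adjusted p under 0.01. Psors1c2, Cdsn, Cchcr1 and Tcf19 entered the fit and Pou5f1 did not. Against their Co counterparts, 1 of the 4 tested genes rose and 0 fell in HF-SC GFP, where 13.0% of all tested genes rose and 12.3% fell. In HF-SC Tom 1 of 4 rose and 0 fell, where 15.7% of all genes rose and 13.9% fell. Of the b-KC fractions, GFP had 0 that rose and 1 that fell (12.5% and 12.0% of all genes), and Tom had 0 that rose and 1 that fell (15.4% and 15.3%). It was a different gene each time, namely Psors1c2, Tcf19, Cchcr1 and Cdsn in that order. None of the 4 passed between GFP and Tom, a comparison in which 0.902% of genes were higher and 4.09% lower in HF-SC GFP, and 0.361% higher and 0.125% lower in b-KC GFP. Between the control cell types 1 of 4 was lower in HF-SC Co than in b-KC Co and 0 were higher (19.3% and 18.7%). In the test of whether the change from Co differed between HF-SCs and b-KCs none passed, for GFP (3.32% of all genes positive and 1.89% negative) or for Tom (5.93% and 2.12%). With 4 genes, these counts are near the shares of all genes, so what follows is about each gene.

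**Figure D1:**
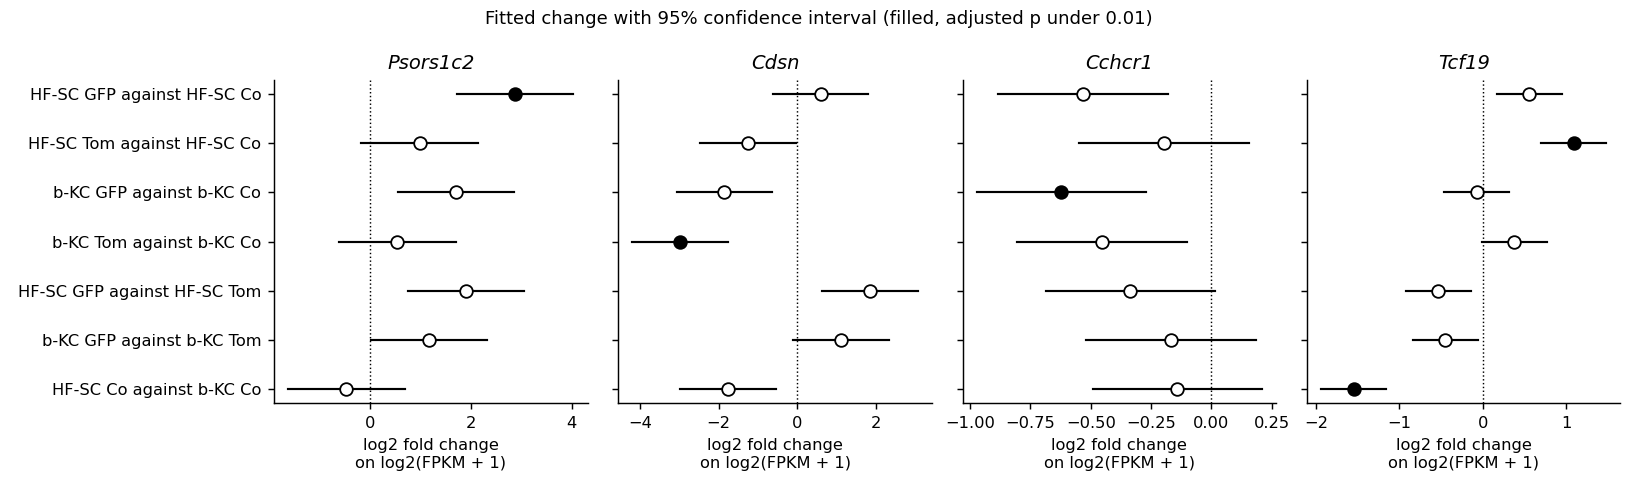
Fitted log2 fold change on log2(FPKM + 1) of Psors1c2, Cdsn, Cchcr1 and Tcf19 (horizontal axes, with their own ranges) in 7 comparisons of 3 against 3 libraries, with bars for the 95% confidence interval and filled points for an adjusted p under 0.01. A single filled point stands in each comparison with Co, at 2.87 for Psors1c2 in HF-SC GFP, 1.09 for Tcf19 in HF-SC Tom, -0.62 for Cchcr1 in b-KC GFP and -2.98 for Cdsn in b-KC Tom.

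Psors1c2 was low in control cells and rose in mutant HF-SCs. In HF-SC Co it measured 0.463, 0.381 and 0.974 FPKM in mice 810, 825 and 828, and in HF-SC GFP 17.4, 21.5 and 2.79 FPKM in mice 814, 815 and 817. The ranges did not overlap, and the GFP value of mouse 817 was far below those of the other two. The mean of 13.9 ± 9.83 FPKM (SD, n = 3) was 22.9-fold that of HF-SC Co (0.606 ± 0.321), and the fitted change was 2.87 ± 0.54 (SE) on log2(FPKM + 1), with a limma adjusted p of 0.000673. Without mouse 814 the change was 2.54 and the adjusted p 0.0133, which did not pass. Psors1c2 was singled out by the study among these same libraries as a predicted secreted product of GFP cells, so this rise is not independent evidence.

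In the non-mutant fraction Psors1c2 stood lower. HF-SC Tom measured 1.58, 2.44 and 2.44 FPKM in mice 814, 815 and 817, all above the 3 HF-SC Co values. The fitted change of 0.98 did not pass (limma adjusted p = 0.159, 95% confidence interval -0.18 to 2.13). With a pseudocount of 0.1 in place of 1 it was 1.74 (adjusted p = 0.0445), which did not pass either, and the rise in HF-SC GFP was 3.96, while without mouse 817 the change in HF-SC Tom was 0.91 with an adjusted p of 0.00606. Within each mouse GFP exceeded Tom, by 11.0-fold in 814, 8.83-fold in 815 and 1.15-fold in 817. The GFP against Tom difference of 1.90 did not pass in the fit of groups (limma adjusted p = 0.0400) and passed with the mouse as a random replicate block (adjusted p = 0.00644) but not with the mouse as a fixed block in the 2 fractions alone (0.134). Without mouse 817 it was 2.77, with an adjusted p of 3.12e-06. It was smaller and did not pass without mouse 814 (1.43, adjusted p = 0.426) or mouse 815 (1.49, 0.325).

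Basal keratinocytes followed the same order of fractions at smaller distances. Psors1c2 measured 1.07, 1.10 and 1.45 FPKM in b-KC Co (mice 810, 825 and 828) and 7.20, 11.8 and 2.51 FPKM in b-KC GFP (mice 814, 815 and 817). These ranges did not overlap, and mouse 817 was again the lowest of the 3 GFP values. The fitted change was 1.70 ± 0.54 (SE), with a limma adjusted p of 0.0208, which did not pass, and without mouse 817 it was 2.22 with an adjusted p of 7.88e-06. In b-KC Tom the values were 1.96, 3.91 and 1.26 FPKM, the last of them inside the b-KC Co range (fitted change 0.54, adjusted p = 0.438). GFP exceeded Tom in each mouse here too, by 3.67-fold in 814 and 3.03-fold in 815, and at 2.51 against 1.26 FPKM in 817. That difference of 1.16 did not pass (adjusted p = 0.426) unless mouse 817 was left out (1.43, adjusted p = 0.00501). By mean level the groups were ordered HF-SC GFP, b-KC GFP, b-KC Tom, HF-SC Tom, b-KC Co and HF-SC Co, and only HF-SC Tom and b-KC Co, and b-KC Co and HF-SC Co, were neighbours whose ranges did not overlap. The difference between HF-SCs and b-KCs in this rise did not pass (1.17, adjusted p = 0.333), and it passed only without mouse 817 (1.46, adjusted p = 0.00704).

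**Figure D2:**
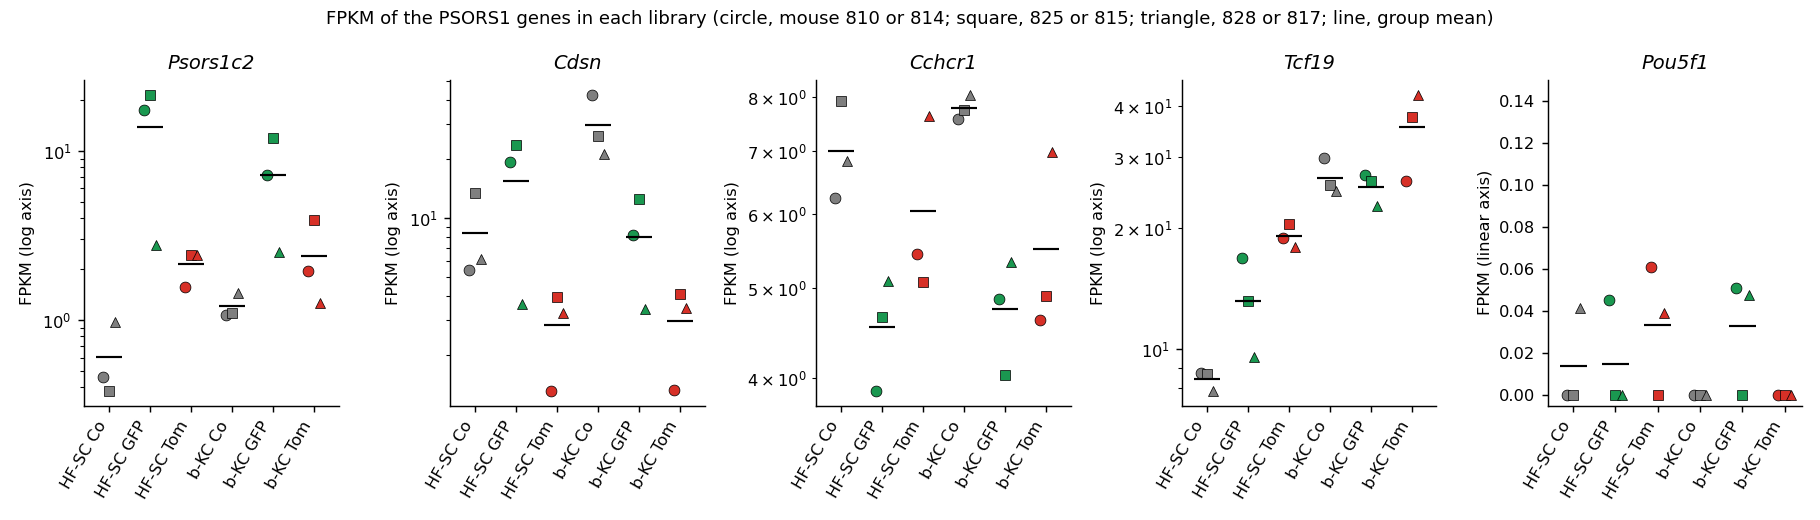
FPKM of each PSORS1 gene in every library of the 6 groups (log axes, linear for Pou5f1, each panel with its own range), with symbols for the mouse and a line for the group mean. Psors1c2 lies between 0.381 and 1.45 FPKM in the Co libraries and reaches 21.5 in HF-SC GFP; Cdsn is highest in b-KC Co at 42.4; Pou5f1 never exceeds 0.0610.

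Cdsn, in contrast to its neighbour, was most abundant in control basal keratinocytes and was lowest in both Tom fractions. In b-KC Co it measured 42.4, 26.0 and 21.2 FPKM in mice 810, 825 and 828, and in b-KC Tom 1.32, 4.11 and 3.47 FPKM in mice 814, 815 and 817. The ranges did not overlap, and the mean of b-KC Co (29.9 ± 11.2 FPKM, SD, n = 3) was 10.1-fold that of b-KC Tom (2.97 ± 1.46). Cdsn fell by 2.98 on the log2(FPKM + 1) scale with an SE of 0.57 (limma adjusted p = 0.000729). This fall passed under each alternative fit that was run and without each mouse in turn, with changes of -3.37 to -2.63.

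The mutant fraction of b-KCs had 8.14, 12.5 and 3.44 FPKM of Cdsn in mice 814, 815 and 817, below each b-KC Co value. The fitted change was -1.86 with an SE of 0.57 and did not pass (limma adjusted p = 0.0178). In HF-SCs, Co cells had 5.44, 13.4 and 6.13 FPKM in mice 810, 825 and 828. HF-SC GFP had 19.2, 23.5 and 3.61 FPKM in mice 814, 815 and 817, so that 2 of the mutant libraries lay above the control range and mouse 817 lay below it. The change was 0.60 with a 95% confidence interval of -0.62 to 1.82 (adjusted p = 0.436), and it ranged from 0.15 without mouse 815 to 1.35 without mouse 817 (adjusted p = 0.0168), none of which passed. HF-SC Tom had 1.31, 3.95 and 3.26 FPKM, each under the lowest HF-SC Co value, with a change of -1.25 that did not pass (adjusted p = 0.0884).

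Within mice 814 and 815 the GFP fraction had more Cdsn than the Tom fraction, by 14.7-fold and 5.96-fold in HF-SCs and by 6.16-fold and 3.04-fold in b-KCs. In mouse 817 GFP was at 1.11-fold of Tom in HF-SCs and at 0.992-fold in b-KCs. Over the 3 mice the GFP against Tom difference was 1.85 in HF-SCs (limma adjusted p = 0.0588) and 1.12 in b-KCs (0.505), and without mouse 817 it passed in HF-SCs (2.72, adjusted p = 0.000708). The HF-SC difference was smaller and did not pass without mouse 814 (1.21, adjusted p = 0.496) or mouse 815 (1.62, 0.371). The difference between the cell types in their change from Co to GFP was 2.45 with a 95% confidence interval of 0.73 to 4.18 (adjusted p = 0.0598), and it passed without mouse 817 (2.77, adjusted p = 0.00417). Between control populations Cdsn was 3.59-fold higher on average in b-KC Co than in HF-SC Co, with ranges that did not overlap. That difference of -1.77 did not pass in the fit over all groups (adjusted p = 0.0175) and passed with the mouse as a random replicate block (0.00611) with the groups compared alone in the fit (0.00245) and without mouse 817, which enters only the shared spread (0.00115). Ordered by mean, the groups ran from b-KC Co through HF-SC GFP, HF-SC Co, b-KC GFP and b-KC Tom to HF-SC Tom, and the range of each overlapped that of the next.

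Set against each other, Cdsn and Psors1c2 held different proportions in control and DKO* cells. The Cdsn to Psors1c2 ratio of FPKM, which was chosen after the values had been seen, was 11.8, 35.2 and 6.30 in HF-SC Co and 39.5, 23.6 and 14.6 in b-KC Co (mice 810, 825 and 828). In HF-SC GFP it was 1.11, 1.09 and 1.29 and in b-KC GFP 1.13, 1.05 and 1.37 (mice 814, 815 and 817). The Tom fractions gave 0.830, 1.62 and 1.34 in HF-SCs and 0.675, 1.05 and 2.76 in b-KCs. All 12 DKO* libraries thus lay at 0.675 to 2.76 and all 6 Co libraries at 6.30 to 39.5, without overlap. Mouse 817, with low levels of both genes in its GFP fractions, lay below Co as well. Its ratio was the highest of the DKO* mice in HF-SC GFP, b-KC GFP and b-KC Tom, but not in HF-SC Tom. Against Co, the mean log2 ratio of HF-SCs changed by -3.57 in GFP and -3.50 in Tom, and that of b-KCs by -4.34 in GFP and -4.25 in Tom. Each had an exact two-sided permutation p of 0.1, the smallest that 3 against 3 libraries can give. GFP and Tom differed by -0.07 in HF-SCs (exact permutation p = 0.9) and by -0.09 in b-KCs (exact permutation p = 1), within the spread of the libraries. In control cells, the Psors1c2 values rested on few reads, down to 5.99 implied reads in a library, so the Co ratios are less precise than those of DKO* cells.

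**Figure D3:**
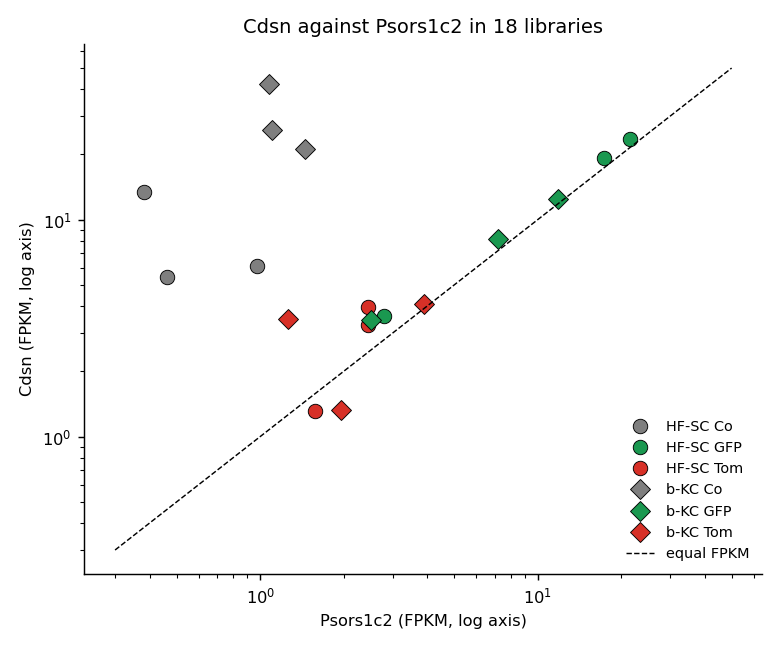
Cdsn against Psors1c2 in the 18 libraries (FPKM, log axes on both sides), circles for HF-SCs and diamonds for b-KCs, coloured by group, with a dashed line where both are equal. The 6 Co libraries sit above and to the left of the line and the 12 DKO* libraries lie along it, from 1.26 to 21.5 FPKM of Psors1c2.

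The rest of the cornified layer and corneodesmosome genes were read from a list of 30, of which 29 were tested (Flg was not in the table). In HF-SC GFP 11 of 29 rose and 0 fell, with a median change of 1.13, beside -0.05 for all tested genes, and in HF-SC Tom 5 rose and 3 fell (median -0.12, all genes -0.04). In b-KC GFP 1 rose and 8 fell (median -0.56, all genes -0.03), and in b-KC Tom 0 rose and 10 fell (median -0.88, all genes -0.02). The shares of all tested genes that rose and fell were 13.0% and 12.3% in HF-SC GFP, 15.7% and 13.9% in HF-SC Tom, 12.5% and 12.0% in b-KC GFP, and 15.4% and 15.3% in b-KC Tom. Cdsn, with fitted changes of 0.60, -1.25, -1.86 and -2.98 in the same order, lay below the list's median in each. Krt2, a keratin of the upper epidermis, measured 6316 to 7268 FPKM in b-KC Co and 93.1 to 1228 FPKM in b-KC Tom, where it fell by 4.83 (adjusted p = 0.00489). Krtdap, a secreted product of differentiating keratinocytes, rose in HF-SC GFP (1.84, adjusted p = 0.000334) and HF-SC Tom (1.41, 0.00229), with changes of 0.22 and -0.01 in the GFP and Tom fractions of b-KCs. Dmkn, also secreted, passed in none of these comparisons, with changes of -0.42 to 0.28. The genes behind the small counts, named here after their values were seen, were Cnfn (2.94), Krt1 (2.27), Tgm3 (1.56), Krtdap and Abca12 (1.33), which rose, and Dsg1a (-1.28), Dsp (-0.98) and Sbsn (-0.95), which fell, in HF-SC Tom, and Tgm1 (1.98), which rose in b-KC GFP. Tgm1 and Tgm3 are transglutaminases that crosslink the cornified envelope, and Dsg1a and Dsp are desmosome proteins. Between GFP and Tom, 1 list gene was higher in HF-SC GFP (2.18, adjusted p = 0.00257), where 0.902% of all genes were higher and 4.09% lower. It was the protease inhibitor Spink5, also named after its values were seen. In b-KCs 0 passed (0.361% and 0.125%). Between control populations 17 of 29 were lower in HF-SC Co and 0 higher (19.3% and 18.7% of all genes).

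Markers of differentiated keratinocytes, 8 genes of which several are also in that list, were higher in both DKO* fractions of HF-SCs than in Co, although Cdsn was not higher in HF-SC Tom. The summed level of the 8 markers was 765 to 980 FPKM in HF-SC Co, 1742 to 3519 in HF-SC GFP, lowest in mouse 817, and 1667 to 2110 in HF-SC Tom. In b-KCs it was 6944 to 8639 in Co, 4905 to 6930 in GFP and 3883 to 6984 in Tom, where Flg2 is listed at 0 in a library. Inner root sheath markers, where Cdsn is also made, summed to at most 12.5 FPKM in any library, and Krt72 is listed at 0 in all libraries of HF-SC Co and of 3 of the 4 DKO* populations, HF-SC GFP excepted. Sebocyte markers, 6 genes, summed to 87.4 to 115 FPKM in HF-SC Co and, in the HF-SC GFP libraries from 814, 815 and 817, to 308, 378 and 109 FPKM, and in b-KC GFP they were likewise lowest in 817 (223 FPKM, against 653 and 773). In b-KC Tom they summed to 149 to 377 FPKM, below the 516 to 773 FPKM of b-KC Co. The 8 basal keratinocyte markers summed to 16274 to 17583 FPKM in b-KC Co and to less in each b-KC GFP (6467 to 10461) and b-KC Tom library (5900 to 16176), sums that include the libraries in which Krt14 is listed at 0. In sorted bulk RNA, fewer cells of a kind and less RNA per cell cannot be told apart. The part of differentiated cells, inner root sheath, melanocytes, sebocytes, basal markers or the leukocyte marker sums given above in the Psors1c2 and Cdsn results was not tested.

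**Figure D4:**
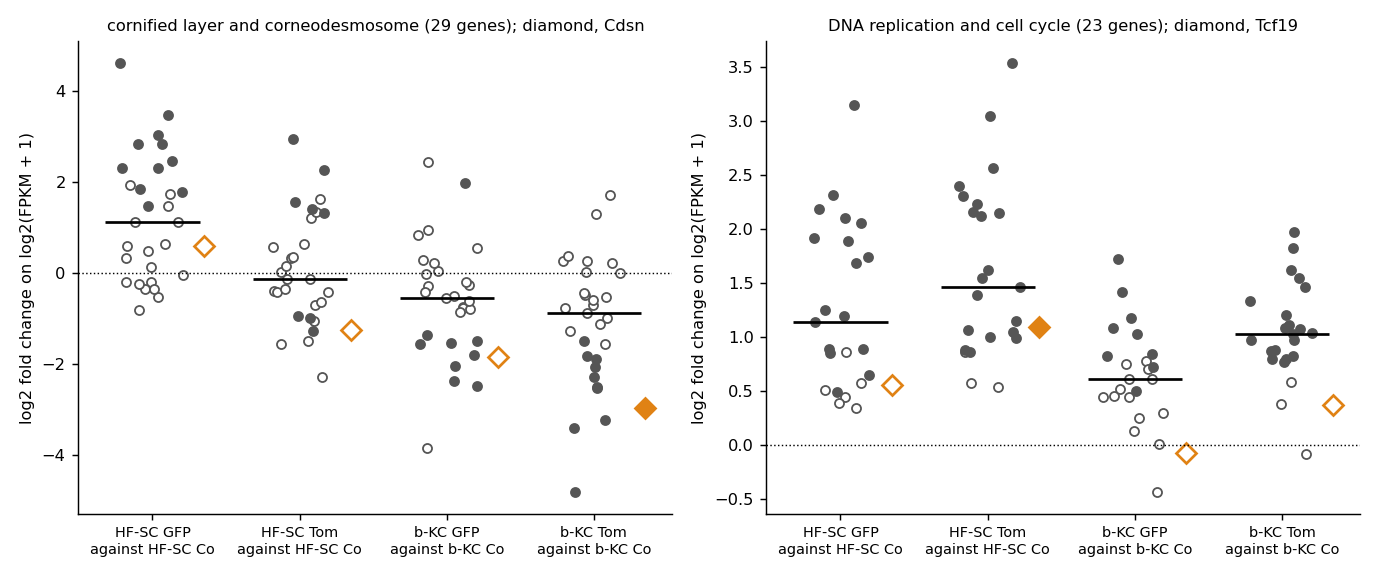
Fitted log2 fold changes on log2(FPKM + 1) against Co for the 29 cornified layer genes (left) and the 23 DNA replication and cell cycle genes (right) in the 4 DKO* populations, filled where the adjusted p is under 0.01, with a line at the median. The diamonds, for Cdsn (left) and Tcf19 (right), lie below the line in each population.

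Tcf19 rose in non-mutant HF-SCs and was the only one of the 4 tested genes that passed between the control cell types. It measured 8.72, 8.68 and 7.88 FPKM in HF-SC Co (mice 810, 825 and 828) and 18.9, 20.4 and 17.9 FPKM in HF-SC Tom (mice 814, 815 and 817). The lowest Tom value was above the highest Co value by more than the whole range of either group, and the mean of 19.1 ± 1.26 FPKM (SD, n = 3) was 2.27-fold that of Co (8.43 ± 0.476). The fitted rise was 1.09 ± 0.18 (SE), with a limma adjusted p of 0.000203. It passed the adjusted p without each mouse in turn, with changes of 1.04 to 1.17 over all alternatives. Endothelial markers, at 545 to 1600 FPKM, and leukocyte markers, at 47.9 to 95.4 FPKM, also exceeded their HF-SC Co sums. Of the 8 leukocyte markers, 2 averaged at least 1 FPKM in HF-SC Tom. The part of either marker list in this rise was not tested.

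In mutant HF-SCs Tcf19 measured 16.8, 13.2 and 9.55 FPKM in mice 814, 815 and 817, above each Co and below each Tom value. The change from Co was 0.56 and did not pass (limma adjusted p = 0.0249), but without mouse 817 it was 0.75 with an adjusted p of 0.00104. The fall from Tom to GFP of 0.53 did not pass either (adjusted p = 0.0924). Control b-KCs had 29.8, 25.5 and 24.6 FPKM, 3.16-fold the mean of HF-SC Co, and the difference of -1.55 with an SE of 0.18 passed (adjusted p = 4.61e-06). Among b-KCs, GFP libraries had 27.0, 26.2 and 22.6 FPKM and Tom libraries 26.1, 37.5 and 42.8 FPKM, and both overlapped Co. Neither passed against Co, at -0.07 for GFP (adjusted p = 0.777, 95% confidence interval -0.46 to 0.32) and 0.38 for Tom (adjusted p = 0.105). The change in GFP turned to 0.0073 without mouse 810 and to 0.00092 without mouse 817. Ordered by mean, b-KC Tom, b-KC Co and b-KC GFP overlapped each other in that order, and HF-SC Tom, HF-SC GFP and HF-SC Co followed below without overlap. The difference between the cell types in the change from Co did not pass for Tom (0.72, adjusted p = 0.0756) or GFP (0.63, 0.125), and it passed for Tom without mouse 817 (0.90, 0.00691).

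Of 23 genes of DNA replication and the cell cycle, all tested, 9 to 20 rose in each DKO* population. Among HF-SCs 17 rose in GFP (median change 1.14) and 20 in Tom (1.46), and among b-KCs 9 rose in GFP (0.61) and 20 in Tom (1.03), while 0 fell in any of the 4. Of all tested genes 13.0%, 15.7%, 12.5% and 15.4% rose in the same order, with medians of -0.05, -0.04, -0.03 and -0.02. Tcf19 changed by less than the list's median in each. Ccnb1, cyclin B1 of mitotic entry, measured 6.68 to 8.84 FPKM in HF-SC Co and 93.2 to 112 FPKM in HF-SC Tom, a rise of 3.53 (limma adjusted p = 2.76e-09), and it rose in the other 3 populations as well (1.18 to 3.15). Mcm6, a subunit of the replicative helicase, rose in HF-SC GFP (0.65, adjusted p = 0.00187), HF-SC Tom (1.07, 2.21e-05) and b-KC Tom (0.97, 6.99e-05), and its change in b-KC GFP was 0.44 (0.0197). Pcna, the sliding clamp of the polymerase, rose in b-KC Tom (0.83, 0.00432), with changes of 0.35 to 0.61 elsewhere. As for Tcf19, 0 of the 23 passed between GFP and Tom in either cell type, with a median difference of -0.38 in both, where few genes of any kind passed (0.902% higher and 4.09% lower in HF-SC GFP, 0.361% and 0.125% in b-KC GFP). Between the control cell types 19 of 23 were lower in HF-SC Co and 0 higher, beside 19.3% and 18.7% of all genes.

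Cchcr1, whose start lies head to head with that of Tcf19, varied least of the 4 tested genes. Its values lay below Co without overlap in both GFP fractions and also in b-KC Tom, and only the fall in b-KC GFP passed. It measured 7.58, 7.76 and 8.05 FPKM in b-KC Co (mice 810, 825 and 828) and 4.87, 4.03 and 5.32 FPKM in b-KC GFP (mice 814, 815 and 817). These ranges did not overlap, and the b-KC Co mean of 7.80 ± 0.237 FPKM (SD, n = 3) was 1.64-fold that of b-KC GFP (4.74 ± 0.654). Cchcr1 fell by 0.62 with an SE of 0.17 (limma adjusted p = 0.00790), close to the threshold. It no longer passed when any of mice 810, 825, 828, 814 or 815 was left out (adjusted p of 0.0231 to 0.0742), with no filter on low values (0.0143) or with the groups compared alone in the fit (0.0103).

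HF-SCs gave 6.24, 7.93 and 6.84 FPKM of Cchcr1 in Co and 3.87, 4.65 and 5.08 FPKM in GFP, again without overlap. The change of -0.53 did not pass (limma adjusted p = 0.0184), and without mouse 817 it was -0.60 with an adjusted p of 0.00156. In Tom cells Cchcr1 measured 5.43, 5.06 and 7.63 FPKM in HF-SCs and 4.61, 4.90 and 6.99 FPKM in b-KCs, so that in mouse 817 it was near the control level. The b-KC Tom values all lay below the b-KC Co range of 7.58 to 8.05 FPKM, while HF-SC Tom overlapped HF-SC Co. Neither change passed, at -0.20 in HF-SC Tom (adjusted p = 0.354) and -0.45 in b-KC Tom (0.0347), the latter passing without mouse 817 (-0.61, 0.00122). GFP and Tom differed by -0.34 in HF-SCs (0.278) and -0.17 in b-KCs (0.874). The order by mean was b-KC Co, HF-SC Co, HF-SC Tom, b-KC Tom, b-KC GFP and HF-SC GFP, and each overlapped the next. All 18 values lay between 3.87 and 8.05 FPKM, a 2.08-fold range, against 56.4-fold for Psors1c2, 32.4-fold for Cdsn and 5.43-fold for Tcf19.

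Of 14 genes of processing bodies and centrosomes, all tested, 2 rose and 0 fell in HF-SC GFP and 2 rose and 1 fell in HF-SC Tom. In b-KCs 1 rose and 1 fell in GFP, and 2 rose and 1 fell in Tom. Of all tested genes, 12.5% to 15.7% rose and 12.0% to 15.3% fell in these comparisons, so the counts do not set this list apart. The medians in the same order were -0.04, -0.13, -0.32 and -0.15, beside -0.05, -0.04, -0.03 and -0.02 for all tested genes. The genes that passed, named after their values were seen, were 3: Sass6, of the centriole cartwheel, rose in all 4 populations (0.53 to 1.05), Plk4, the kinase of centriole duplication, rose in HF-SC GFP (1.22), HF-SC Tom (1.43) and b-KC Tom (0.82), and Ddx6, an RNA helicase of processing bodies, fell in HF-SC Tom (-0.60), b-KC GFP (-0.59) and b-KC Tom (-0.66). Edc4 and Edc3, scaffolds of the decapping complex, and Lsm1, a subunit of the ring that binds deadenylated mRNA, were the most abundant of them. None of the 3 passed in any comparison with Co. Edc3 stayed within -0.09 to -0.02, Edc4 had changes of -0.45 to -0.07 and Lsm1 of 0.05 to 0.59.

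The ratio of Tcf19 to Cchcr1, also chosen after the values had been seen, moved upward in DKO* cells. It ranged over 1.09 to 1.40 in HF-SC Co, 1.88 to 4.34 in HF-SC GFP and 2.35 to 4.04 in HF-SC Tom. In b-KCs it ranged over 3.06 to 3.93 in Co, 4.25 to 6.49 in GFP and 5.66 to 7.66 in Tom. Each DKO* population lay above its Co counterpart without overlap, on the log2 scale by 1.24 (GFP) and 1.41 (Tom) in HF-SCs and by 0.65 (GFP) and 0.92 (Tom) in b-KCs, each with an exact permutation p of 0.1. Unlike the Cdsn to Psors1c2 ratio, it also separated the control cell types, being lower in HF-SC Co by 1.49 (exact permutation p = 0.1), while that of Cdsn to Psors1c2 overlapped between them (exact permutation p = 0.4).

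**Figure D5:**
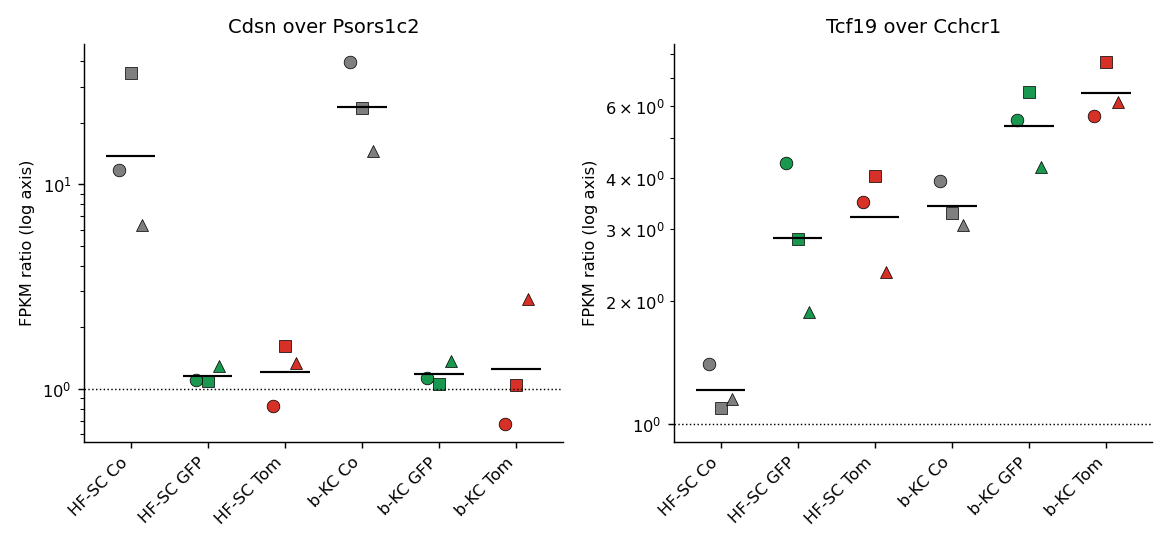
FPKM ratios of the neighbouring genes Cdsn and Psors1c2 (left) and Tcf19 and Cchcr1 (right) in each library of the 6 groups, on log axes, with a symbol for each mouse, a line at the group's geometric mean and a dotted line at 1. On the left the DKO* libraries lie at 0.675 to 2.76 and the Co libraries at 6.30 to 39.5; on the right each DKO* group lies above its own Co group.

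Pou5f1 was at the limit of detection. It is listed at 0 in 12 libraries and above 0 in 6, at 0.0414 FPKM in HF-SC Co of mouse 828, 0.0452 in HF-SC GFP of 814, 0.0610 and 0.0391 in HF-SC Tom of 814 and 817, and 0.0510 and 0.0475 in b-KC GFP of 814 and 817. All b-KC Co and b-KC Tom libraries are listed at 0. Each value above 0 corresponds to 1.35 to 1.36 implied reads at the length of the longest coding transcript, 1347 bases. So constant a number is what 1 read would give on a shorter length. A floor of 3 reads is 0.0847 to 0.135 FPKM at the length used and would be higher at a shorter length. No library exceeded this floor, and no difference was detectable at this depth. This floor covers counting error only, and Pou5f1 has near-identical retrotransposed copies in the genome to which reads may be assigned. Without the filter on low values, its fitted changes were 0.05 or less in each comparison with Co and none passed (limma adjusted p of 0.251 to 1).

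Of 16 other genes of the pluripotency network, 13, among them Nanog and Sox2, also failed the filter. Klf4, which also acts in barrier formation of the epidermis, fell in HF-SC Tom (-1.12, limma adjusted p = 0.00437) and b-KC Tom (-1.22, 0.00241), with changes in the GFP fractions of -0.75 in HF-SCs and -0.89 in b-KCs. Myc fell in b-KC GFP (-1.65, 0.00120) and b-KC Tom (-1.59, 0.00114), with changes of -0.61 and -0.47 in HF-SCs. Tdgf1, a coreceptor of Nodal, rose in HF-SC GFP (2.08, 4.34e-06), b-KC GFP (2.16, 7.76e-06) and b-KC Tom (1.54, 8.01e-05). It is listed at 0 in all HF-SC Co libraries and measured 2.39 to 5.39 FPKM in HF-SC GFP, and among HF-SCs the GFP fraction exceeded the Tom fraction (1.36, 0.000732).

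The genes whose pattern over the 18 libraries was most like that of each tested member were found by Pearson's r of log2(FPKM + 1), given as a description since the libraries share mice and groups. For Psors1c2 they were Lce3e (r = 0.946) and Lce3a (0.941), late cornified envelope genes, and Klk6 (0.944), a kallikrein. Klk6 measured 0.0391 to 2.28 FPKM in Co and 6.80 to 74.1 FPKM in HF-SC GFP. For Cdsn they were Klk5 (0.959), a kallikrein that cleaves corneodesmosin, Cldn23 (0.932), a claudin, and Dkkl1 (0.928). Klk5 measured 17.2 to 31.7 FPKM in b-KC Co, where Cdsn too was highest, and 0.838 to 2.37 FPKM in b-KC Tom. Tcf19 was matched by Tubb5 (0.965), a tubulin, Stmn1 (0.962), a regulator of microtubules, and Hn1 (0.960), and Cchcr1 by Pofut1 (0.925), a fucosyltransferase of Notch receptors, Lrrc45 (0.915), a centrosomal protein, and Galnt2 (0.915). Between the members themselves r was 0.231 for Psors1c2 and Cdsn, -0.77 for Psors1c2 and Cchcr1, and -0.08 for Tcf19 and Cchcr1.

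Within 250000 bases on either side of the 5 genes, 15 other genes were in the table and 8 were tested. Gtf2h4, a subunit of the transcription and repair factor TFIIH, rose in all 4 DKO* populations, by 0.62 in GFP (limma adjusted p = 0.00207) and 0.56 in Tom (0.00372) of HF-SCs, and by 1.19 in GFP (1.76e-05) and 1.15 in Tom (1.40e-05) of b-KCs. No other neighbour rose in a comparison with Co. The class I histocompatibility gene H2-Q8, named after its values were seen, fell in HF-SC Tom (-2.23, 0.00391) and b-KC Tom (-2.89, 0.000625). Ddr1, a collagen receptor, had changes of -1.12 to -0.64, none of which passed. H2-Q6, another class I gene, had changes of -0.79 to 1.25, none of which passed. Reads of both H2-Q genes may be split among near-identical paralogs, which leaves their values uncertain. 1 of the 8 neighbours thus rose in each of the 4 populations, beside 12.5% to 15.7% of all tested genes.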

How the data were processed

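RNA from 18 sorted populations was made into non-directional SMART-Seq v4 and Nextera XT libraries and sequenced as single-end reads. The authors aligned the reads with TopHat2 2.0.10, using Bowtie 1.0.0 and SAMtools, estimated expression with Cufflinks 2.2.1, and deposited, for 23951 genes, an FPKM value in each library. FPKM divides by transcript length and by library size; whether libraries were scaled further is not given in the sources used here. Without strand information and with multiply mapping reads allowed, paralogs and pseudogenes are uncertain.

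Samples were grouped by their labels and none was left out. The values were tested as log2(FPKM + 1), the pseudocount being 1, with limma (version 3.58.1, R 4.3.3), using lmFit, contrasts.fit and trended eBayes, with 1 mean per group, all 18 libraries and the 12751 genes of at least 1 FPKM in at least 3 libraries; the deposited values themselves are not on a log2 scale. A fold change on this scale understates that of low genes, so no minimum fold was set, and a gene passed at a Benjamini-Hochberg adjusted p under 0.01. The step was tested on simulated data. Ratios of FPKM were compared by exact two-sided permutation of the mean log2 ratio. Depth came from the FPKM steps of 7744 genes with 1 transcript (for 77.1% to 81.6% of low values the implied count was whole to within 0.1). The libraries held PCR copies without molecular identifiers, so read floors cover counting error only. Coordinates are those of GENCODE vM1 on NCBIM37. Ratios were computed with pandas 2.3.3 and numpy 2.4.6 and plotted with matplotlib 3.10.9 (Python 3.11.15).

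GFP and Tom of a DKO* mouse, and the HF-SCs and b-KCs of a mouse, are paired by the mouse number in the labels; the correlation of their deviations from the group means was 0.0838 to 0.591 for HF-SC GFP and Tom, 0.242 to 0.687 for b-KC GFP and Tom, and 0.204 to 0.317 for the Co populations. The mouse was fitted as a block in alternatives.

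By rule, the genes named are the 5 members, the 3 genes most like each tested member, the 3 most abundant of each list, and the 3 tested neighbours with the largest change in HF-SC GFP. Jun and Junb are named as a check of the labels. Further genes of the lists and markers, and the neighbour H2-Q8, are named after their values were seen. Members and lists were chosen with earlier results of these data known, and the TATA box and the 2 ratios after sequences and values had been seen.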

Additional observations from a re-analysis of the deposited data

How the results depend on the processing

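Of 512 values of the members under alternative settings, 476 kept their direction and side of the threshold, 22 newly passed, 11 no longer passed and 3 reversed. The reversed values were near 0, namely Tcf19 in b-KC GFP against Co (0.007307 without replicate 810 and 0.0009221 without replicate 817, of a range of -0.1256 to 0.007307 over left-out mice) and the Cchcr1 difference of changes for GFP (-0.02057 without replicate 815, of a range of -0.02057 to 0.1965). Counts of passing members, reported as 1 for each of the 4 DKO* populations against Co, 0 and 0 for GFP against Tom in HF-SCs and b-KCs, and 1 for HF-SC Co against b-KC Co, moved as follows. At an adjusted p under 0.05 they were 3 in HF-SC GFP, 3 in b-KC GFP, 2 in b-KC Tom, 1 for HF-SC GFP against Tom and 2 between the Co populations. With a log2 change of at least 2 also required, they were 0 in b-KC GFP, 0 in HF-SC Tom and 0 between the Co populations. With no filter or with the groups compared alone, b-KC GFP had 0, and the Co populations alone had 2. With the mouse as a random replicate block, HF-SC GFP against Tom had 1 and the Co populations 2; the random block changed no other count, and the fixed replicate block for GFP against Tom left both at 0. Leaving out each mouse in turn gave 0 to 3 in HF-SC GFP, 0 to 2 in b-KC GFP, 1 to 2 in HF-SC Tom, 1 to 2 in b-KC Tom, 0 to 2 for HF-SC GFP against Tom, 0 to 1 for b-KC GFP against Tom, 1 to 2 between the Co populations, and 0 to 2 and 0 to 1 for the differences of changes in GFP and Tom, the upper end each time without mouse 817; the cause was not tested. Another pseudocount, eBayes without a trend and rescaled libraries moved no count. The 4 differences in the Cdsn to Psors1c2 log2 ratio stayed within -4.13 to -2.89, -4.06 to -2.82, -4.70 to -3.98 and -4.83 to -3.81 over their alternatives.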
